A study of Mus musculus with 56 samples.

Results

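The regions described here are binding sites of the histone deacetylases HDAC1, HDAC2, and HDAC3 that lie in CpG islands of the macrophage genome. Peaks of the 12 HDAC ChIP-seq samples were kept if their detailed annotation named a CpG island, overlapping peaks were merged, and a merged region had to be found in at least 2 samples. This left 1427 regions, or 3.95% of the 36092 HDAC regions found in at least 2 samples. The remaining 34665 regions are called the other HDAC regions. The question was how the 3 enzymes differ at CpG islands and whether 1 hr of IL-4 changed their binding there.

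The cells were bone marrow-derived macrophages (BMDMs) of wild-type mice on a C57BL/6 background, aged 8 to 12 weeks, differentiated for 6 days with L929 supernatant, a source of M-CSF. One group was left untreated and the other received IL-4 (20 ng/ml) for 1 hr, with 2 samples per group and enzyme. All cells were cross-linked with DSG and formaldehyde before ChIP. The labels do not say that the replicates came from separate animals or cultures, so p-values measure only the spread between these samples. The untreated cells carried RNAPII-pS5 peaks at 8 of 8 macrophage markers (summed scores of 654 and 549) and at 3 of 12 markers of other cells (137 and 72.5), namely *Ms4a1*, *Pecam1*, and *Elane*, with none at *Cd3e*, *Epcam*, *Col1a1*, or *Alb*. H3K27Ac regions were annotated to 5 of 8 macrophage markers, with none at *Csf1r*, *Cd68*, and *Lyz2* (summed signals of 3125 and 3106), and to 2 and 3 of 12 markers of other cells (1143 and 1160). For both readouts, peaks and regions placed between genes were left out of these marker counts. The HDAC samples held 19683 to 30511 peaks for HDAC1 and HDAC2 but 8440 to 13599 for HDAC3. Read depth is unknown. Each enzyme was measured with an antibody of its own, so enzyme and antibody cannot be told apart. For HDAC3, the sample labels give the catalogue number that they also give for H3K27Ac, whereas the study's reagent list gives another number.

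CpG islands are stretches of DNA that are rich in G and C, keep their CG dinucleotides because these are mostly unmethylated, and often surround the start sites of housekeeping and regulatory genes. HDAC1, HDAC2, and HDAC3 are class I enzymes that remove acetyl groups from histone tails. HDAC1 and HDAC2 are closely related and work in the SIN3, NuRD, and CoREST complexes, whereas HDAC3 is the enzyme of the NCoR corepressor complexes. In macrophages, IL-4 activates STAT6 and drives alternative polarization.

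The letters of 5 regions are shown, 3 for their rank over all samples and 2 for an IL-4 difference described below. Each is the window of 300 bases around the highest peak of its region, read from the plus strand of the mouse genome (GRCm38.p6, mm10), with each CG dinucleotide in capitals. *Cmtm6* (chr9:114752935-114753234), *Arid5a* (chr1:36308024-36308323), and *Cxcr4* (chr1:128590819-128591118) had the highest mean ranks, and *Nup98* (chr7:102209599-102209898) and *Cd320* (chr17:33843243-33843542) had the smallest p-values for a higher score after IL-4 of HDAC1 and HDAC2 among islands with a peak in all 4 samples of the enzyme.
Cmtm6: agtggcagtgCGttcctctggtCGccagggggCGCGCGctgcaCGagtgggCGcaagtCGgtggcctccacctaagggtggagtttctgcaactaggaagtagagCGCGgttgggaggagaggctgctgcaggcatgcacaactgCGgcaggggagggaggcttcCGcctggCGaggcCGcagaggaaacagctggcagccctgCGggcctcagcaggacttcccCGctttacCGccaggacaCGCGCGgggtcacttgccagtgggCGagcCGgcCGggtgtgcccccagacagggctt
Arid5a: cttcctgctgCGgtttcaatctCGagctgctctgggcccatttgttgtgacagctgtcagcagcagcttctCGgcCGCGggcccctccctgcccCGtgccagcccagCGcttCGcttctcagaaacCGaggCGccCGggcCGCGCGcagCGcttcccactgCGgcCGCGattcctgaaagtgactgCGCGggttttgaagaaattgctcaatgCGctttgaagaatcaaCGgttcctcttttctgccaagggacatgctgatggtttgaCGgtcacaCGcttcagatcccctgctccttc
Cxcr4: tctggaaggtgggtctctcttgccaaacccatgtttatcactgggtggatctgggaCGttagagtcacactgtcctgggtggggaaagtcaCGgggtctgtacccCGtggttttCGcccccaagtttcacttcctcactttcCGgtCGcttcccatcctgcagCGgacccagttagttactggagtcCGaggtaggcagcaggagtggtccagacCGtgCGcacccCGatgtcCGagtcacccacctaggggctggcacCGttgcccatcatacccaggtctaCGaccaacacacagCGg
Nup98: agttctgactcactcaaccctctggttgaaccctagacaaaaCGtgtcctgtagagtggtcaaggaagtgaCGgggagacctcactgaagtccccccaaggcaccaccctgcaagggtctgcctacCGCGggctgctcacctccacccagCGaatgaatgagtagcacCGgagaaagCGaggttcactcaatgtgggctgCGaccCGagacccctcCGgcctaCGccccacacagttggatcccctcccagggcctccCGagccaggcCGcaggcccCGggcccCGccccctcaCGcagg
Cd320: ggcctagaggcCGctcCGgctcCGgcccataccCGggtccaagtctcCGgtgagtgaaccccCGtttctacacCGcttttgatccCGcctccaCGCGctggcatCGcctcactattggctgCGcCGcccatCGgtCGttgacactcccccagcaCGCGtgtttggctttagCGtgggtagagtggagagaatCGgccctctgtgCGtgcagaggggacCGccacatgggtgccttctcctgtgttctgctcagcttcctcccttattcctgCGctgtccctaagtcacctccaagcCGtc

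The *Arid5a* window held 24 CG dinucleotides and the *Cmtm6* window 23, whereas *Nup98* held 16 and *Cxcr4* 15. Their G and C content was 60.3% (*Arid5a*), 68.3% (*Cmtm6*), 64.0% (*Nup98*), 59.0% (*Cxcr4*), and 63.0% (*Cd320*). The *Cxcr4* window, in the intron of the CXCL12 receptor gene, was the only window of the 5 with the purine-rich element of the myeloid factor PU.1 (GAGGAAGT), read here on the minus strand, and with the ETS core CCGGAA.

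The CpG island regions were gene-proximal but not annotated as promoters. The annotation of the files gives promoters priority over islands, and none of the 5885 CpG peaks was placed in a promoter. Of the 1427 regions, 1202 (84.2%) were placed in introns and 225 between genes, and 93.6% of the intronic regions lay in the first intron of their transcript, against 43.7% of the other intronic HDAC regions. The distance to the annotated start site had a median of 268 bp (quartiles of 160 and 521 bp), and 74.8% of the regions lay within 1000 bp of it, against 23.2% of the other HDAC regions. Intergenic islands lay farther away, with a median distance of 13400 bp. Most regions thus lay downstream of known start sites. Since promoters had priority, only peaks not labelled as promoters could be kept, so this placement depends in part on the labels. By another annotation (GENCODE vM21), 803 regions (56.3%) held the start of a transcript, against 17.9% of the other HDAC regions, and this was so for 77 of the 225 intergenic islands. Some peaks in a region carried another label: 68.7% of the 7067 overlapping peaks were CpG peaks, and 352 regions (24.7%) had a promoter peak in some sample. The regions were 192 to 1494 bp wide (median of 462 bp, against 453 bp for the others). They were assigned to 1379 genes, of which 46 had more than 1 region. Islands are named below for the annotated gene, whose start site can lie far from an intergenic island (66346 bp for *Clic4*, −38342 bp for *Csf2ra*). The rule kept 555 regions that were found in just 2 samples and dropped 1030 that were found in 1.

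HDAC1 had the largest share of its peaks in CpG islands, followed by HDAC2 and HDAC3. The HDAC1 shares were 4.25% and 4.78% without IL-4 and 4.07% and 4.44% with it. The HDAC2 shares were 1.21% and 1.11% without IL-4 and 1.46% and 0.925% with it. The HDAC3 shares were 0.567% and 0.533% without IL-4 and 0.691% and 0.443% with it. The 3 enzymes did not overlap. The mean share was 4.38% ± 0.304 for HDAC1, 1.18% ± 0.224 for HDAC2, and 0.559% ± 0.103 for HDAC3 (SD, n = 4 samples each). Each of the 3 pairs differed with p = 0.0286 in a two-sided exact permutation test over the samples (adjusted p = 0.0286), the smallest p that 4 samples against 4 allow. The order of HDAC2 and HDAC3 depended on how many peaks were read. When only the 8440 highest peaks of each sample were used, HDAC1 stayed at 4.45% ± 0.50, HDAC2 fell below HDAC3 (0.350% ± 0.00684 against 0.432% ± 0.0681), and this reversed difference of −0.0829 percentage points also had p = 0.0286 in the exact test.

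**Figure D1:**
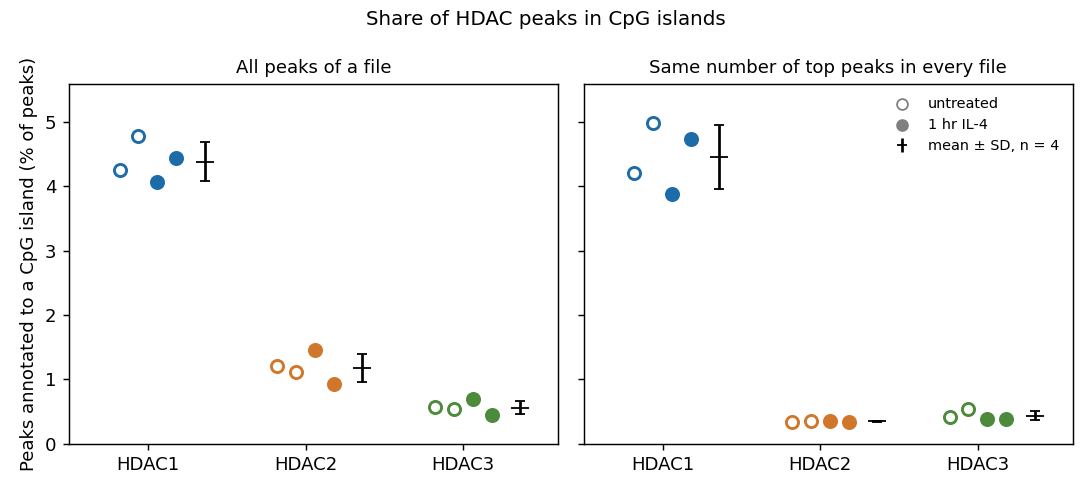
Share of peaks in CpG islands (%, vertical axis) in each of the 12 HDAC samples, by enzyme, with all peaks and with the 8440 highest peaks of each sample; open points are untreated, filled points 1 hr IL-4, and bars show the mean ± SD of 4 samples. HDAC1 lies between 4.07% and 4.78% with all peaks, far above the other enzymes, whereas HDAC2 moves from above to below HDAC3 when the number of peaks is made equal.

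The order was similar at annotated promoters. Promoter peaks made up 18.5% ± 0.503 of HDAC1 peaks, 11% ± 1.38 of HDAC2 peaks, and 6.52% ± 0.453 of HDAC3 peaks (SD, n = 4; p = 0.0286 for each pair, two-sided exact permutation test). With promoter peaks left out, the share in CpG islands was 5.38% for HDAC1, 1.33% for HDAC2, and 0.598% for HDAC3. HDAC1 peaks were also richer in G and C elsewhere: outside islands and promoters, the median G and C content was 47.7% ± 0.272 for HDAC1, 46.7% ± 0 for HDAC2, and 46.4% ± 0.50 for HDAC3 (HDAC1 against either, exact permutation p = 0.0286, adjusted p = 0.0429; HDAC2 against HDAC3, exact p = 0.429). The part of library base composition in the island shares was not tested.

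CpG peaks ranked low among the peaks of HDAC2 and HDAC3 but not of HDAC1. The median score, a −log10 value from MACS2, was 7.05 in islands against 7.03 elsewhere for HDAC1 and 4.94 against 6.76 for HDAC2 in their untreated replicate 1. For HDAC3 it was 6.37 against 8.66 in the same replicate. The difference between the median percentile of CpG peaks and that of other peaks was 0.765 ± 2.54 points for HDAC1, −22.2 ± 2.23 for HDAC2, and −19.4 ± 7.34 for HDAC3 (SD, n = 4). Over all 12 samples it was −13.6 points, lower in islands in 9 of 12 samples (two-sided exact sign-flip permutation test, p = 0.00586), and the 3 exceptions were HDAC1 samples. In a comparison chosen after these values were seen, HDAC1 differed from HDAC2 by 23.0 points and from HDAC3 by 20.2 points (exact permutation p = 0.0286, adjusted p = 0.0429 for both), whereas HDAC2 and HDAC3 differed by −2.80 points (exact p = 0.60).

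Most CpG island regions carried HDAC1, fewer carried HDAC2, and few carried HDAC3. These counts rest in part on how the regions were chosen, since HDAC1 gave most of the CpG peaks. HDAC1 peaks were found in 1305 and 1259 of the 1427 regions without IL-4 and in 1079 and 1093 with it. HDAC2 peaks were found in 412 and 348 regions without IL-4 and in 595 and 289 with it. HDAC3 peaks were found in 97 and 59 regions without IL-4 and in 128 and 77 with it. Expressed as shares, HDAC1 covered 75.6% to 91.5% of the island regions and 57.1% to 75.5% of the other HDAC regions, HDAC2 20.3% to 41.7% against 53.0% to 71.3%, and HDAC3 4.14% to 8.97% against 23.7% to 37.6%. Thus HDAC1 was more often present in islands than elsewhere in every sample, and HDAC2 and HDAC3 less often in every sample. Within HDAC2 and within HDAC3, samples with more peaks had more island regions, and for HDAC1 the untreated samples had more of both.

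**Figure D2:**
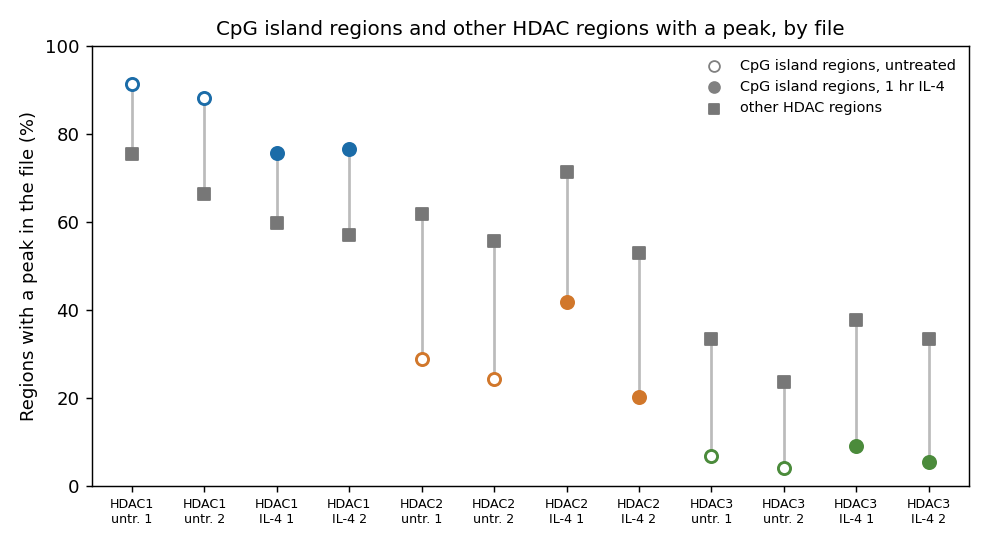
Share of regions with a peak (%, vertical axis) in each HDAC sample, for the 1427 CpG island regions (circles, open untreated and filled 1 hr IL-4) and the 34665 other HDAC regions (grey squares). The island share is above the other share in the 4 HDAC1 samples and below it in the 8 HDAC2 and HDAC3 samples.

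Counting an enzyme as present with a peak in at least 2 of its 4 samples, 906 island regions (63.5%, against 18% of the other HDAC regions) had HDAC1 alone and 396 (27.7%, against 26.4%) had HDAC1 and HDAC2. All 3 enzymes were present at 66 regions (4.63%, against 29.6%). HDAC1 gave most of the CpG peaks from which the islands were chosen, so these shares also rest in part on that choice. HDAC1 and HDAC3 shared 12 regions, HDAC2 and HDAC3 shared 3, 19 had HDAC2 alone, 5 had HDAC3 alone, and 20 reached 2 samples with no enzyme. HDAC1 was present in all 4 samples at 813 regions, HDAC2 at 90, and HDAC3 at 23. Intergenic islands had more HDAC2 and HDAC3 than intronic islands. HDAC2 was present at 46.7% of intergenic against 31.5% of intronic islands and HDAC3 at 16% against 4.16%, whereas HDAC1 was present at 90.2% against 97.9%. No test over regions was run on these shares.

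The 10 island regions with the highest mean percentile rank over the 12 samples showed the range of patterns. The region annotated to *Cmtm6*, which encodes a protein that keeps PD-L1 on the cell surface, ranked highest (chr9:114752803-114753431, between genes, 21881 bp from the start site). Its HDAC1 scores were 23.0 and 21.2 without IL-4 and 22.8 and 11.7 with it. Its HDAC2 scores were 15.6 and 19.7 without IL-4 and 18.3 and 19.7 with it. Its HDAC3 scores were 21.3 and 14.5 without IL-4 and 28.0 and 17.7 with it. The 3 enzymes overlapped at *Cmtm6*, and so did untreated and treated samples within each enzyme.

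*Arid5a* encodes an RNA-binding protein known for stabilizing *Il6* mRNA, and its island lay in intron 1 (chr1:36307789-36308558). HDAC1 scored 21.0 and 12.7 there without IL-4 and 9.6 and 7.94 with it. HDAC2 scored 20.8 and 13.1 without IL-4 and 18.7 and 15.8 with it. HDAC3 scored 17.2 and 16.9 without IL-4 and 27.3 and 19.6 with it. The HDAC1 scores were lower and the HDAC3 scores higher after IL-4 in both replicates, yet neither change passed the test (HDAC1 log2 change of −0.58 ± 0.44 SE, limma adjusted p = 0.724; HDAC3 0.15 ± 0.49 SE, adjusted p = 0.938).

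At *Cxcr4* (chr1:128590692-128591354, intron 1), the HDAC1 scores were 12.6 and 18.2 without IL-4 and 12.8 and 17.2 with it. The HDAC2 scores were 10.6 and 9.17 without IL-4 and 8.34 and 9.73 with it. The HDAC3 scores were 10.5 and 6.35 without IL-4 and 8.04 and 13.4 with it. HDAC1 was above HDAC2 in all samples, while HDAC1 and HDAC3 overlapped in raw score.

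The other highly ranked islands differed in their enzymes. *Noc2l*, which encodes an inhibitor of histone acetyltransferases, had HDAC2 scores of 25.6 and 22.4 without IL-4 and 29.8 and 27.5 with it, and HDAC1 scores of 26.7, 24.3, 21.0, and 15.98 in the same order. It had no HDAC3 peak in any sample, although its HDAC2 scores were the highest of the 10 regions. *Mcm7*, a subunit of the replicative helicase, had HDAC1 scores of 32.1 and 23.5 without IL-4 and 36.1 and 40.3 with it, HDAC2 scores of 5.81 to 9.61, and an HDAC3 peak in 2 samples (9.11 and 5.32). *Polr3b*, a core subunit of RNA polymerase III, had HDAC1 scores of 23.4, 19.4, 35.6, and 12.0 and HDAC2 scores of 6.14, 7.84, 11.7, and 6.17. HDAC1 was above HDAC2 and HDAC3 in every sample of *Mcm7* and *Polr3b*. The others were *Actr2*, a subunit of the actin-nucleating Arp2/3 complex, *Clic4*, an intracellular chloride channel protein, the kinase-like gene *Adck5*, and *Tgfb1*, which encodes the cytokine TGF-β1. *Adck5* had an HDAC3 peak in 1 sample (6.85) and HDAC1 scores of 11.5 to 21.6, and *Clic4* lacked HDAC3 in 1 sample only, whereas *Actr2* and *Tgfb1* had all 3 enzymes in every sample.

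**Figure D3:**
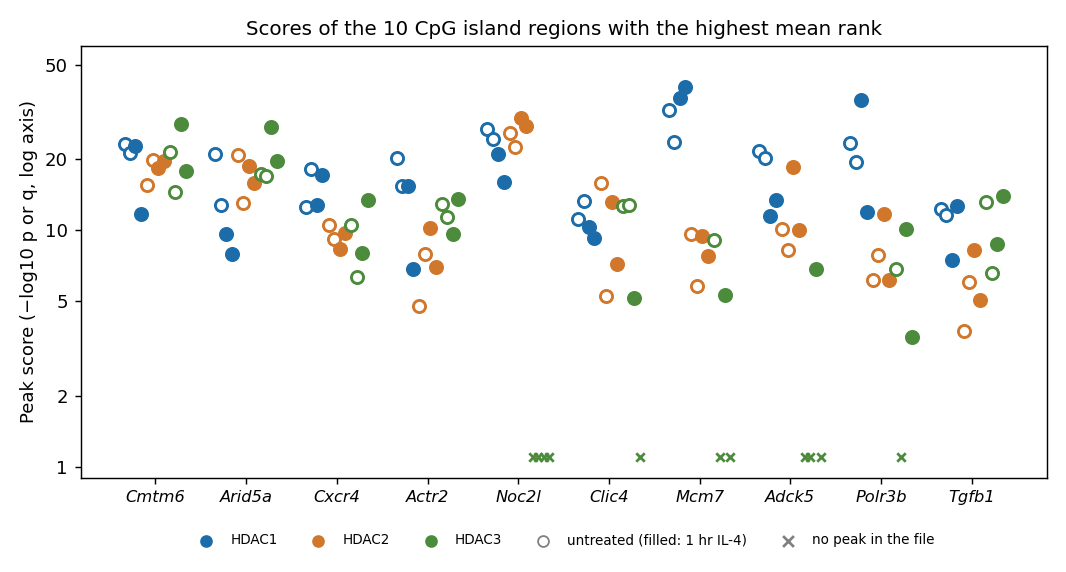
Peak scores (−log10 of p or q, log axis) of the 10 CpG island regions with the highest mean rank, in each sample; colours mark the enzyme, open points untreated, filled points 1 hr IL-4, and crosses samples without a peak. HDAC1 stands above HDAC2 and HDAC3 at *Mcm7* and *Polr3b*, and HDAC3 has no peak at *Noc2l*.

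Only 7 island regions had a peak in all 12 samples, against 4038 of the other HDAC regions, so the enzymes could be compared by score at few islands. The 7 lay at *Arid5a*, *Cxcr4*, *Actr2*, *Exoc3*, *Prr5l*, *Tgfb1*, and *Cmtm6*. Differences are given on the log2 scale of scores centred on the median of the 4045 shared regions, from 1 limma fit over the 12 samples. HDAC1 was higher than HDAC3 at 2 of the 7 (adjusted p of at most 0.05), while 16.0% of all 4045 regions were higher and 19.0% lower in HDAC1. *Cxcr4* differed by 1.17 ± 0.30 (SE, adjusted p = 0.00362), and its centred values did not overlap (−0.10 to 0.96 in HDAC1, −1.14 to −0.18 in HDAC3). *Exoc3*, a subunit of the exocyst, differed by 1.08 ± 0.31 (adjusted p = 0.00762) with overlapping values, and it is named because so few regions passed. The *Exoc3* call was lost without HDAC1 IL-4 replicate 1 (adjusted p = 0.0549), HDAC3 untreated replicate 1 (0.0641), or HDAC3 IL-4 replicate 1 (0.0647).

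HDAC1 was not called different from HDAC2 at any of the 7, with 0.222% of all regions higher and 0% lower in HDAC1. HDAC1 had an unadjusted p of at most 0.05 for a higher score at 4 of the 7 and for a lower score at none, against 5.76% and 3.81% of all regions: *Tgfb1* (1.21 ± 0.31 SE, limma adjusted p = 0.0888), *Actr2* (1.15 ± 0.30, adjusted p = 0.0979), *Exoc3* (1.08 ± 0.31, adjusted p = 0.157), and *Cxcr4* (0.92 ± 0.30, adjusted p = 0.243). At these 4, picked by their p-values, the centred HDAC1 and HDAC2 values did not overlap. The share of all regions without such overlap was not counted. HDAC2 and HDAC3 were not called different at any of the 7 either (1 was lower and 0 higher in HDAC2 at an unadjusted p of at most 0.05, against 24.0% and 20.2% of all regions), with 15.9% of all regions higher and 18.9% lower in HDAC2. At *Arid5a*, *Prr5l*, and *Cmtm6* the 3 enzymes overlapped in each pair. Their intervals were wide: the difference of HDAC1 from HDAC2 at *Cmtm6* was 0.31 with a 95% interval of −0.28 to 0.90.

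No shift of the share of peaks in islands was detected after IL-4. The share changed by −0.263 percentage points for HDAC1, 0.0319 for HDAC2, and 0.0167 for HDAC3, or −0.0715 on average (two-sided exact permutation within enzymes, p = 0.630; the smallest p this design allows is 0.00926). For each enzyme by itself, 2 samples against 2 could not give a p below 0.333.

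At single islands, none of the tested IL-4 changes passed an adjusted p of 0.05 in limma, at 1380 regions for HDAC1, 484 for HDAC2, and 86 for HDAC3. The same was true of all HDAC regions, of which 0% were called for HDAC1, HDAC2, or HDAC3. The smallest adjusted p-values at islands were 0.194, 0.195, and 0.0926. At an unadjusted limma p of at most 0.05, HDAC1 was lower after IL-4 at 110 islands (7.97%, against 9.63% of all regions) and higher at 20 (1.45%, against 4.29%). HDAC2 was higher at 46 (9.50%, against 8.06%) and lower at 25 (5.17%, against 5.71%). HDAC3 was higher at 9 (10.5%, against 14.8%) and lower at 6 (6.98%, against 4.49%). Both HDAC1 counts lay below those of all regions, and the HDAC2 counts lay near them. A fit of only the regions with a peak in all 4 samples gave other counts at this unadjusted p. HDAC1 was higher at 26 and lower at 23 of 813 islands (572 and 419 of all 13512 regions). HDAC2 was higher at 4 and lower at 2 of 90 (488 and 447 of 11694). HDAC3 was higher at 0 and lower at 1 of 23 (416 and 404 of 6038). The excess of lower HDAC1 islands was thus not seen where no peak was missing.

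The counts over all tested islands were also made without each sample. This leaves 1 sample in a group and drops islands with peaks in the left-out group alone. For HDAC1, 1195 to 1312 islands could then be tested. Without untreated replicate 1 or 2, HDAC1 was lower at 4 or 2 islands and higher at 31 or 28, and without IL-4 replicate 1 or 2, lower at 141 or 169 and higher at 9 or 8. HDAC2 counts of higher islands were 42 and 40 without an untreated replicate but 1 and 0 without an IL-4 replicate, and its counts of lower islands were 5 and 3 against 41 and 24. The HDAC3 counts of higher islands were 13 and 12 against 1 and 0, and those of lower islands 3 and 0 against 10 and 2. For each enzyme, the counts in a direction fell when the group with the higher scores lost a sample, whichever of its 2 samples it was.

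The median log2 change was −0.17 for HDAC1 (−0.10 over all regions), 0.04 for HDAC2 (−0.02), and −0.06 for HDAC3 (0.08). These medians moved with single samples: the range was −0.28 (without untreated replicate 1) to −0.04 (without IL-4 replicate 1) for HDAC1, −0.21 (without untreated replicate 1) to 0.42 (without IL-4 replicate 2) for HDAC2, and −0.28 (without untreated replicate 2) to 0.14 (without IL-4 replicate 2) for HDAC3. When missing and lower scores were set to 4 times the lowest score, the medians were 0.12, −0.08, and −0.26. Each of the 3 medians thus changed sign in at least 1 of these settings. At islands with a peak in all 4 samples of the enzyme it was −0.06 at 813 regions for HDAC1 (0.01 over all such regions), 0.11 at 90 regions for HDAC2 (−0.02), and −0.05 at 23 regions for HDAC3 (−0.05). Centring mattered for HDAC1 and HDAC3: without it, the median over all regions with a peak in all 4 samples moved to −0.31 for HDAC1 and 0.23 for HDAC3, and to 0.05 for HDAC2. At those islands the medians were then −0.38 for HDAC1, 0.19 for HDAC2, and 0.24 for HDAC3. The HDAC1 samples held 30511 and 26836 peaks before and 23270 and 22340 after IL-4, and the HDAC3 samples 11985 and 8440 before and 13599 and 11971 after. The part of the number of peaks in these shifts was not tested. The IL-4 change was not called different between enzymes at any of the 7 islands shared by all samples, where 0% of all 4045 regions were called for HDAC1 against HDAC2, for HDAC1 against HDAC3, or for HDAC2 against HDAC3; no island had an unadjusted p of at most 0.05.

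**Figure D4:**
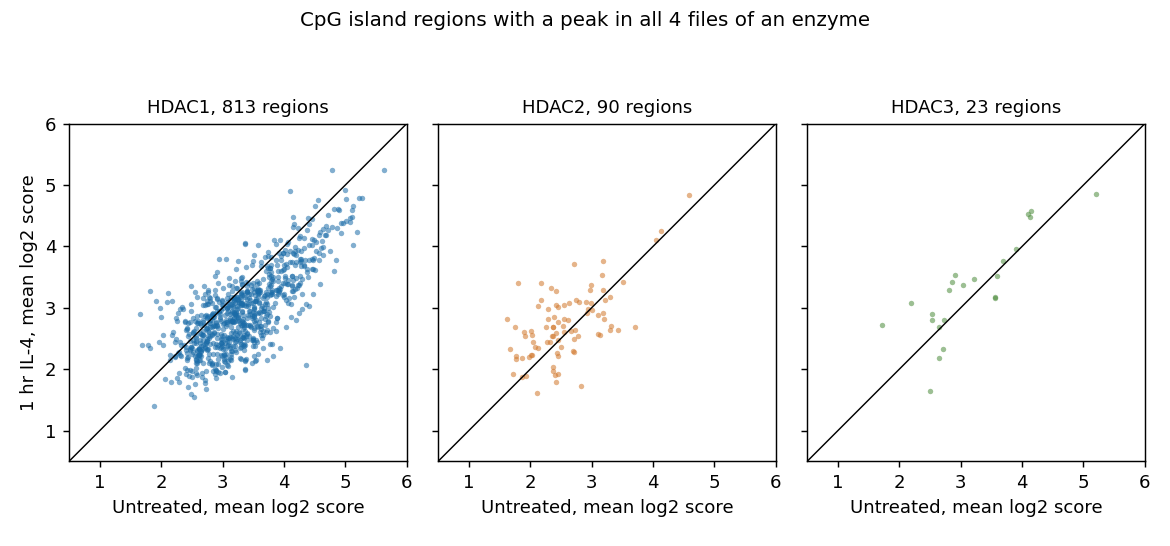
Mean log2 score of 2 IL-4 samples (vertical axis) against 2 untreated samples (horizontal axis), without centring, at the CpG island regions with a peak in all 4 samples of HDAC1 (813 regions), HDAC2 (90), and HDAC3 (23); the line marks equal scores. HDAC1 points lie mostly below the line (median of −0.38) and the HDAC2 and HDAC3 points mostly above it (0.19 and 0.24), and none of these regions was called.

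Loss and gain of whole peaks was counted as well. HDAC1 had a peak in both untreated samples and in no IL-4 sample at 112 of 1414 islands (7.92%, against 8.45% of all regions), and the reverse at 10 (0.707%, against 2.38%). HDAC2 had 24 such losses (2.92%, against 3.52%) and 47 such gains (5.72%, against 5.82%) among 822 islands. HDAC3 had 4 losses (2.00%, against 2.00%) and 10 gains (5.0%, against 9.33%) among 200 islands. HDAC1 islands had more losses than gains, and HDAC2 and HDAC3 islands more gains than losses. All regions had the same directions, and the island shares lay near or below theirs. Missing peaks also entered the limma fits, at the lowest score, so these counts are no separate evidence.

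Among islands with a peak in all 4 samples of the enzyme, those with the smallest p-values in each direction are given as values, since none passed. Islands that lacked a peak in some sample had smaller p-values in part, such as *Cdkn1a* for HDAC1 and *Rnf19b* for HDAC3, which are described with their gene lists. For HDAC1, *Nup98*, a nuclear pore protein, had scores of 4.87 and 2.53 before and 10.3 and 9.12 after IL-4, and no HDAC2 or HDAC3 peak. Its log2 change was 1.79 ± 0.47 (SE, limma adjusted p = 0.203), and *Gemin7* and *Usp8* followed with 1.57 and 1.33. In the other direction, *Cdc23*, a subunit of the anaphase-promoting complex, had HDAC1 scores of 28.5 and 15.0 before and 3.38 and 5.25 after IL-4. The change at *Cdc23* was −1.97 ± 0.52 (adjusted p = 0.207). It turned to 0.22 (adjusted p = 0.986) when a peak had to overlap by 50%, and it was called when missing and lower scores were set to 4 times the lowest score (−1.61, adjusted p = 0.000912). Next in this direction, *Fanca*, a Fanconi anemia repair protein, and *Brk1*, a subunit of the WAVE complex, had −1.27 and −1.07. At each of these HDAC1 islands the untreated and treated scores did not overlap, but the islands were chosen by their p-values. The share of all regions without overlap was not counted.

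For HDAC2, *Cd320*, the receptor for transcobalamin-bound vitamin B12, had scores of 2.78 and 4.37 before and 12.9 and 8.75 after IL-4 (1.53 ± 0.56, limma adjusted p = 0.308). *Ino80*, a chromatin remodeler, and *Ywhag*, a 14-3-3 protein, had 1.13 and 1.16. *Csf2ra*, the α subunit of the GM-CSF receptor, had HDAC2 scores of 14.9 and 11.5 before and 9.20 and 4.51 after (−1.10 ± 0.52, adjusted p = 0.480). The HDAC1 scores at *Csf2ra* were 22.4 and 17.3 before and 9.95 and 8.80 after. Both enzymes had lower scores there in both treated samples, whereas HDAC3 had no peak before and scores of 6.72 and 6.20 after. Scores are given without centring, and without it the median HDAC1 change over all regions with a peak in all 4 samples was −0.31. *Abracl* and *D8Ertd738e* had HDAC2 changes of −0.87 and −1.18. For HDAC3, *Fam21*, a subunit of the WASH complex, had scores of 2.98 and 3.63 before and 7.90 and 5.56 after (0.72 ± 0.53, adjusted p = 0.598), and *Hps1*, a subunit of BLOC-3, had 4.53 and 6.99 before and 4.28 and 2.27 after (−1.14 ± 0.62, adjusted p = 0.435). *Ahrr* and *Cpt1a* had 0.58 and 0.33, and *Litaf* and *Cmtm7* had −0.75 and −0.67.

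Of the 12990 genes assigned to any HDAC region, 1379 (10.6%) had an island region. Differences of the gene lists from this share were not tested. It was higher in value for housekeeping lists: 16 of 54 ribosomal protein genes (29.6%) and 10 of 38 genes of DNA replication and cell cycle (26.3%). Among ribosomal protein genes, *Rpl21* (29.9, 16.8, 15.9, and 18.5) and *Rplp1* (24.0, 24.5, 15.2, and 16.1) had high HDAC1 scores in untreated replicates 1 and 2 and IL-4 replicates 1 and 2. *Rpl30* and *Rps23* were similar, with HDAC1 scores of 7.80 to 21.4, and none of the 4 had an HDAC3 peak. Of the 17 ribosomal islands, 16 carried HDAC1 in at least 2 samples, 8 HDAC2, and 0 HDAC3. Among cell cycle genes, *Ccnb1*, which encodes cyclin B1, had HDAC1 scores of 30.7, 28.6, 28.9, and 20.5 with a single HDAC2 peak of 4.1, and *Mcm10* had HDAC1 scores of 13.7 to 37.97. Over all 1427 islands, HDAC1 was present in at least 2 samples at 96.7%, HDAC2 at 33.9%, and HDAC3 at 6.03%, so HDAC1 was no more frequent at the ribosomal islands.

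*Cdkn1a*, the p21 inhibitor of cyclin-dependent kinases, carried HDAC3 as well. Its HDAC1 scores were 8.14 and 8.13 in untreated cells, with no peak in either IL-4 sample. Its HDAC3 scores were 16.2 and 8.56 without IL-4 and 11.7 and 6.82 with it. The HDAC1 change of −2.26 ± 0.43 SE did not pass (limma adjusted p = 0.194, the smallest of HDAC1 at islands). Both IL-4 values in it are the lowest HDAC1 score, set for a missing peak, so its size and SE depend on that floor.

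The genes that read or write CpG islands had islands in 7 of 23 cases (30.4%). *Mll2*, an H3K4 methyltransferase, *Kdm2b*, which binds unmethylated CG through its CXXC domain, *Wdr5*, a shared subunit of methyltransferase complexes, and *Eed*, a PRC2 subunit, were among them. Their HDAC1 scores were between 2.87 and 9.84, against 7.80 to 29.9 at the 4 named ribosomal islands. At *Wdr5* the HDAC1 scores were 5.49 and 2.87 before and 7.95 and 7.96 after IL-4 (1.32 ± 0.47 SE, limma adjusted p = 0.308). Among class I deacetylases and their complexes, 4 of 31 genes (12.9%) had an island, among them *Sap130* (2 islands) and *Ing1* of the SIN3 complex and *Hdac1* itself. *Hdac1* had HDAC1 scores of 5.41 and 7.75 before IL-4 and a peak of 6.77 in 1 of 2 samples after it. No island of this list had HDAC2 or HDAC3 in 2 samples. Among acetyltransferases and acetyl readers, 2 of 16 genes (12.5%) had an island, *Kat6a* and *Crebbp*, both with HDAC1 alone.

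IL-4 pathway genes had islands at 6 of 38 genes (15.8%), and HDAC3 was present in at least 2 samples at 5 of their 9 islands, against 86 of all 1427 (6.03%). The islands named here for *Klf4*, *Batf3* (27497 bp from the start site), and *Jak1* (−26897 bp) lay between genes, where 16% of islands had HDAC3. At *Kdm6b*, an H3K27 demethylase linked to alternative activation, the HDAC3 scores were 31.8 and 42.5 without IL-4 and 28.1 and 30.01 with it. The HDAC1 scores there were 9.21 and 8.17 without IL-4 and 2.77 and no peak with it, and HDAC2 had no peak and 3.39 before and 12.3 and 4.54 after. HDAC3 was above HDAC1 and HDAC2 in every sample of *Kdm6b*. At *Klf4*, a zinc finger factor induced in alternative activation (−118832 bp from the start site), the HDAC3 scores were 20.2 and 8.33 before and 18.3 and 10.2 after. HDAC1 scored 6.56 and 4.43 at *Klf4* without and had no peak with IL-4. The HDAC1 changes were −1.84 ± 0.51 SE at *Kdm6b* (limma adjusted p = 0.217) and −1.67 ± 0.43 SE at *Klf4* (adjusted p = 0.201). HDAC2 went the other way in value, with 1.73 ± 0.74 SE (adjusted p = 0.408) and 1.05 ± 0.73 SE (adjusted p = 0.712). Missing peaks entered these changes at the lowest score of the enzyme, for HDAC1 at *Klf4* in both IL-4 samples. Their size and SE depend on that floor. *Batf3*, a bZIP factor, had HDAC2 scores of 6.66 and 6.50 before and 17.7 and 9.64 after IL-4 and HDAC1 scores of 13.3 and 12.6 before and 7.33 and 6.83 after. The other genes with an island were *Pparg* and *Ppargc1b*, a nuclear receptor and a coactivator of lipid metabolism. *Jak1*, a kinase of the IL-4 receptor, had peaks of all 3 enzymes, with scores of 2.85 to 8.34. None of the IL-4 pathway islands was called, and HDAC1 was lower at 3 of the 7 tested at an unadjusted limma p of at most 0.05 (7.97% of all islands and 9.63% of all regions), with HDAC2 higher at 1 of 5 (9.50% and 8.06%).

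For inflammatory and macrophage identity genes the counts were small and their shares lay below 10.6% in value. For the inflammatory response, 3 of 47 genes (6.38%) had one: *Relb*, *Rela*, and *Traf6*. *Relb*, an NF-κB subunit, had HDAC1 scores of 6.20, 7.61, 6.79, and 6.74 and no HDAC2 or HDAC3 peak. *Rela* and *Traf6* had an HDAC1 peak in 2 samples each. Of the macrophage transcription factors, 1 of 30 genes (3.33%) had one, *Maf*, with HDAC2 scores of 4.01 and 5.08 before and 13.0 and 5.87 after IL-4. Immediate early and AP-1 factors had islands at 4 of 23 genes (17.4%), *Nr4a2* with 2 islands, *Atf3*, *Fos*, and *Klf2*. The larger *Nr4a2* island had HDAC1 alone (13.5, 10.8, 5.24, and 8.87). The macrophage markers had 0 of 8 and the markers of other cells 0 of 3.

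The study sorted genes by their expression after IL-4 into induced clusters A to D and the repressed cluster E. Islands were found at 0 of 30 genes of cluster A, 14 of 149 of cluster B (9.40%), 24 of 271 of cluster C (8.86%), 53 of 417 of cluster D (12.7%), and 46 of 562 of cluster E (8.19%). No island of any cluster was called after IL-4. In cluster B, *Rnf19b*, an E3 ubiquitin ligase, had HDAC3 peaks only with IL-4 (scores of 8.43 and 11.1) (2.50 ± 0.52 SE, limma adjusted p = 0.0926, the smallest of HDAC3 at islands). *Clic4*, in the same cluster, went the other way, with HDAC3 scores of 12.6 and 12.7 before and 5.19 and no peak after IL-4 (−2.52 ± 0.71 SE, adjusted p = 0.131). The missing peaks at *Rnf19b* and *Clic4* were set to the lowest HDAC3 score, so the size and SE of both changes depend on that floor. In cluster D, *Nolc1*, a nucleolar phosphoprotein, had HDAC1 scores of 44.2 and 29.9 before and 15.7 and 22.8 after IL-4 (−0.62 ± 0.48 SE, adjusted p = 0.728). In cluster E, *Pfkfb3*, a regulator of glycolysis, had HDAC1 scores of 11.2 to 15.8 in all 4 samples. The Polycomb gene *Cbx7* had HDAC1 scores of 9.97 to 18.7 and HDAC2 scores of 4.02 and no peak before and 10.01 and 5.42 after IL-4.

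Other ChIP-seq readouts of the same cells were set beside the islands by overlap of peaks. They had no part in choosing the regions. RNAPII-pS5, the initiating form of RNA polymerase II, overlapped 89.2% to 91.2% of the islands against 59.7% to 69.0% of the other HDAC regions in its 4 samples. H3K27Ac, a mark of active promoters and enhancers, overlapped 78.1% to 79.6% against 61.3% to 62.1%. PU.1 was the reverse, at 15.5% to 23.5% of islands against 70.4% to 76.3% of the others. The acetyltransferase p300 overlapped 49.3% of islands in untreated replicate 1 and 77.5% to 81.2% in the other 3 samples, against 81.7% and 94.1% to 95.9% of the others. That p300 sample had 44787 peaks, against 66710 to 69360. The islands were higher for RNAPII-pS5 and H3K27Ac and lower for PU.1 and p300 in every sample.

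In RNAPII-pS5 and H3K27Ac the islands were close to HDAC regions at annotated promoters. Promoter HDAC regions outside the islands overlapped RNAPII-pS5 at 91.0% to 93.4% and H3K27Ac at 78.7% to 79.8%, but PU.1 at 35.2% to 42.8% and p300 at 66.0% to 92.6%. For p65, an NF-κB subunit measured in cells with or without 24 hr of IL-4 before 1 hr of LPS (100 ng/ml), islands overlapped at 12.3% to 17.0% without LPS and 24.8% to 34.8% with LPS, against 22.3% to 26.5% and 44.1% to 52.4% of the other HDAC regions. More p65 islands were found with LPS, and the p65 samples then held 26305 to 38955 peaks in place of 9556 to 11026.

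The readouts varied among the islands with the enzymes present. PU.1 overlapped 8.83% to 14.2% of islands with HDAC1 alone, 23.5% to 34.8% of those with HDAC1 and HDAC2, and 51.2% to 68.6% of the 86 islands with HDAC3. For p300 the ranges were 33.7% to 73.0%, 75.8% to 99.0%, and 96.5% to 100%. H3K27Ac differed less, at 73.0% to 75.3%, 92.4% to 93.7%, and 81.4% to 84.9%, and so did RNAPII-pS5, at 86.2% to 89.3%, 97.5% to 98.0%, and 96.5% to 98.8%. Islands with HDAC3 had more PU.1 and p300 than islands with HDAC1 alone in every sample, while their H3K27Ac overlap was below that of islands with HDAC1 and HDAC2 in every sample. H3K27Ac regions all had the same width of about 1 kb, wider than the median HDAC region. Whether the antibody number given for HDAC3 has a part in its overlap with H3K27Ac was not tested.

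**Figure D5:**
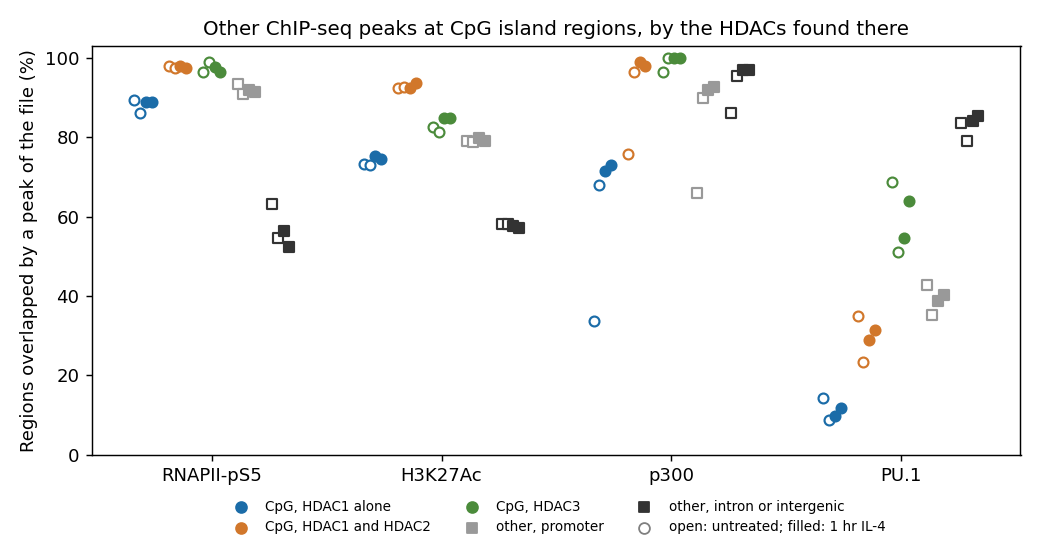
Share of regions (%, vertical axis) overlapped by a peak of RNAPII-pS5, H3K27Ac, p300, or PU.1 in each of their 4 samples, for CpG islands with HDAC1 alone, with HDAC1 and HDAC2, and with HDAC3 (circles), and for the other HDAC regions at promoters and in introns or between genes (squares); open symbols are untreated and filled symbols 1 hr IL-4. PU.1 lies at 8.83% to 14.2% of islands with HDAC1 alone, 51.2% to 68.6% of islands with HDAC3, and 79.0% to 85.3% of the other intron and intergenic regions.

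After 1 hr of IL-4, the islands changed little in these readouts. At islands with a peak in all 4 samples, the median log2 change was 0.10 for H3K27Ac (1072 islands, −0.03 at the other HDAC regions), 0.14 for RNAPII-pS5 (1232 islands, 0.03), 0.06 for p300 (679 islands, −0.11), and −0.17 for PU.1 (131 islands, −0.05). Promoter HDAC regions outside the islands had medians of 0.10, 0.11, 0.06, and −0.13, close to those of the islands. The island quartiles were −0.02 and 0.24 for H3K27Ac, −0.03 and 0.32 for RNAPII-pS5, −0.23 and 0.36 for p300, and −0.55 and 0.22 for PU.1. No test was made on these medians.

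The sequence of the windows of 300 bases followed the annotation. The median G and C content was 63.3% in islands (quartiles of 60% and 66.3%), 48.0% in the other HDAC regions, 57.3% in promoter HDAC regions outside the islands, and 52.7% in RefSeq promoters of the same length. The ratio of observed to expected CG dinucleotides was 0.771 in islands, 0.259 in the others, 0.694 in promoter HDAC regions, and 0.383 in RefSeq promoters. With at least 50% G and C and a ratio of at least 0.6, 90.3% of island windows met common island criteria, against 14.0% of the others. The others were mixed: 57.6% of the 5424 promoter HDAC regions met the criteria, against 3.12% of the other intron and intergenic regions. Windows with island sequence were thus also common among HDAC regions labelled as promoters, which do not count as islands here.

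Short motifs were counted on both strands of these windows. A match is a description of the letters and not a bound site. The GC box of Sp and KLF factors (GGGCGG) was in 51.4% of islands, 14.2% of the other HDAC regions, and 35.6% of RefSeq promoters, and the ETS core (CCGGAA) in 25%, 10.2%, and 14.9%. The E-box CACGTG, bound by MYC and related factors, was in 14.5%, 6.83%, and 7.15%. Macrophage enhancer motifs were less frequent in islands than in the other HDAC regions: the PU.1 element (GAGGAAGT) was in 3.23%, 14.3%, and 3.20%, and the AP-1 element (TGANTCA) in 4.98%, 17.5%, and 7.82%. The CCAAT box was in 19.5%, 28.9%, and 37.4%. The cyclic AMP response element (TGACGTCA) was in 0.842%, 0.800%, and 1.79%, the YY1 element (AAGATGGC) in 2.38%, 1.64%, and 2.74%, the NRF1 element in 0.701%, 0.173%, and 0.966%, and the STAT6 element in 5.12%, 11.3%, and 6.94%. Promoter HDAC regions outside the islands were closer to the islands in several motifs. They had the GC box in 41.1%, the E-box in 12.1%, and the ETS core in 27.7%, which is above the share of islands. The PU.1 element was in 6.20% of them and the AP-1 element in 7.41%. The GC box, the ETS core, the E-box, the cyclic AMP response element, and the NRF1 element each hold a CG dinucleotide, and CG content is what the island annotation rests on. The PU.1 element was in 1.88% of 906 windows with HDAC1 alone, 5.57% of 395 with HDAC1 and HDAC2, and 6.98% of 86 with HDAC3. Islands with HDAC1 alone were lowest, as for the PU.1 peaks. The shares of the other groups lay close together, with few windows for HDAC3.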

How the data were processed

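The data were lists of ChIP-seq peaks, 1 per sample. Conditions and replicate numbers came from the labels. The authors aligned reads to mm10 with BWA, called HDAC, p300, PU.1, p65, and RNAPII-pS5 peaks in each sample with MACS2 at a q-value cut-off, filtered blacklisted regions, and used HOMER for annotation. The submitters' processing notes name BWA 0.7.10, SAMtools 0.1.19, HOMER 4.2, and MACS2 2.0.10. The scores deposited for MACS2 peaks are −log10 values, of p or of q, which is not stated. For H3K27Ac, the authors deposited a tag-normalized signal for regions of equal width. No reads were used, so depth is unknown, and 0 columns of per-sample values were left out. RNAPII-pS2 and the RNAPII-pS5 samples of the LPS experiment were not analysed here.

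CpG peaks were merged over the 12 HDAC samples by an overlap of at least 1 bp and kept if found in at least 2 samples, and the remaining peaks were merged likewise into the other HDAC regions. The value of a region was the highest score of any overlapping peak. Missing peaks received the lowest score of the enzyme's samples, scores were log2-transformed, and centring used the median, in each sample, of regions with a peak in all samples used. IL-4 changes were fitted with limma 3.58.1 for each enzyme over all regions with a peak in at least 2 of its 4 samples, and enzymes were compared in 1 fit over the regions with a peak in all 12 samples, with Benjamini-Hochberg adjustment over all regions and a threshold of 0.05. Shares, ranks, and G and C content were compared by exact two-sided permutation of samples. The tests of ranks and of G and C content between enzymes were added after the values were seen.

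Named regions were the 10 with the highest mean rank, for each enzyme the 3 per direction with the smallest p among islands with a peak in all 4 samples where fewer than 3 passed, regions called between enzymes without overlap, and up to 4 per gene list. *Prr5l*, *Exoc3*, *Klf2*, *Pparg*, and *Ppargc1b* were named after their values were seen. The regions and the lists were chosen with earlier results of these data known. A few genes of these lists, and the list of developmental regulators, are not reported here. Older symbols in the files were matched (*Kmt2d* is listed as *Mll2*). Genome letters were read from GRCm38.p6 and promoters from RefSeq. The limma fit was tested on simulated data of the HDAC1 samples (13512 regions, 200 changed). Every region received normal noise of the same SD, the median over regions. Of changes of 1 log2 unit 10.0% were found and of changes of 2 97.5%, with 4.76% and 4.88% of calls false. The spread of the real regions differed, so these shares do not tell how often such changes would be found in the data. Versions were R 4.3.3, matplotlib 3.10.9, SciPy 1.17.1, Python 3.11.15, pandas 2.3.3, and NumPy 2.4.6.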

Additional observations from a re-analysis of the deposited data

Results flagged for a closer look

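In 16 groups of 4 samples, the distance of the most extreme sample from its neighbour was compared with the range of the group, a rule by which chance marks about 1 in 20 groups. The share of CpG island regions overlapped by p300 was 49.33% in untreated replicate 1, and its gap to the other 3 samples was 0.884 of the range, above Dixon's critical value. This sample also had the fewest p300 peaks (44787), and its overlap with the other HDAC regions was the lowest as well (81.7%). The share overlapped by RNAPII-pS5 was 89.21% in untreated replicate 2, with a gap of 0.857 of the range, although the 4 samples spanned only 89.2% to 91.2%.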

How the results depend on the processing

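The number of CpG island regions was 500 when a region had to be found in 4 samples. The differences in island share kept their direction without any one sample, at 3.08 to 3.31 percentage points (HDAC1 minus HDAC2), 3.69 to 3.93 (HDAC1 minus HDAC3), and 0.523 to 0.702 (HDAC2 minus HDAC3), each with exact permutation p = 0.0571, the smallest p that 3 against 4 samples allow. With equal numbers of peaks, HDAC2 minus HDAC3 was −0.0829. IL-4 calls at islands, 0 for each enzyme, rose to 3 (HDAC1) and 1 (HDAC3) with a floor 4 times as high, to 10, 2, and 5 (HDAC1, HDAC2, HDAC3) in 1 fit over all 12 samples, and to 1 for HDAC3 with scores of at least 5. At an unadjusted p of at most 0.05 they were 130, 71, and 15. Without any one sample they were also 0, but this left 1 sample in a group (smallest adjusted p of 0.111 to 0.9995), so it says nothing of stability. The replicate numbers do not pair the samples (correlations of same-numbered deviations of −0.00062, 0.0292, and 0.0576), and with a replicate block the counts were 0, 0, and 0 after IL-4 and 0, 2, and 0 between enzymes. Differences between enzymes depended on the filter. With a peak in at least 2 of 12 samples and missing peaks at the floor, 972 (HDAC1 against HDAC2), 1275 (HDAC1 against HDAC3), and 189 (HDAC2 against HDAC3) islands were called, but a region that passed only through HDAC1 had to differ. With percentile ranks, 1 island was called for HDAC1 against HDAC3. Without any one sample the counts were 1 to 5 for HDAC1 against HDAC3 (1 without HDAC1 IL-4 replicate 1 or HDAC3 IL-4 replicate 1, 4 without HDAC3 IL-4 replicate 2, 5 without HDAC3 untreated replicate 2) with 7 to 11 islands tested, and 0 to 1 for HDAC2 against HDAC3 (1 without HDAC2 untreated replicate 2, HDAC3 IL-4 replicate 1, or HDAC3 untreated replicate 2). HDAC1 against HDAC2 gained 1 of 9 without HDAC3 untreated replicate 1 and 2 of 11 without HDAC3 untreated replicate 2. Single islands reversed: *Usp8* to −0.047 and *Cdc23* to 0.22 with an overlap of 50% of the peak, *Fam21* to −0.041 with the higher floor, and *Cpt1a* ranged from −0.0105 (without HDAC3 IL-4 replicate 2; −0.0100 without untreated replicate 2) to 0.708 (without IL-4 replicate 1). The causes were not tested. Scores grow with depth, which is unknown, and in data simulated from HDAC1 regions with a peak in all 4 samples most changes of 1 log2 unit were missed. HDAC2, HDAC3, regions with missing peaks, and a spread that differs between regions were not simulated.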
